A study of Mus musculus with 4 samples.

Results

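RNA-seq of spontaneous sarcomas from W/+ mice was examined for 10 genes, the tissue inhibitors of metalloproteinases Timp1, Timp2, Timp3 and Timp4 and the matrix metalloproteinases Mmp2, Mmp3, Mmp9, Mmp11, Mmp13 and Mmp14. They were found by symbol among the 56691 genes of the deposited table, and all 10 had a row. The genes were selected on their read counts and FPKM in ATO-treated against control sarcomas, so that their differences between the groups are described here without a test. The W/+ mice carry 1 mutant Trp53 allele in the germline, written p53R282W/+ in the labels by the human residue number, and 1 wild-type allele, also in the control mice. The ATO group (ATO 1 and ATO 2) comprised 2 sarcomas from mice given arsenic trioxide, a compound that restores activity to some p53 mutants, in their drinking water from early adult life until death. The control group (Ctl 1 and Ctl 2) comprised 2 sarcomas from mice whose treatment is PBS in the labels and which the study calls untreated. The mice were on the C57BL/6N background. The age at collection, the sex and the subtype of each sarcoma are not in the labels, and the study saw angiosarcomas, soft tissue sarcomas and osteosarcomas in these mice. The labels of all 4 samples also describe a culture protocol with dexamethasone, isobutylmethylxanthine and insulin, which the methods do not give for the sarcomas. Nothing in the labels says that replicate sarcomas came from separate mice, and the spread between them is all that a p-value can measure here.

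Matrix metalloproteinases are zinc-dependent enzymes that cut collagen, gelatin and other parts of the extracellular matrix. They are made as inactive precursors, and the Timp proteins bind the active enzymes and block them. Mmp14 sits in the plasma membrane and, together with Timp2, activates the precursor of Mmp2. In connective tissue and its tumors these genes are active in fibroblast-like cells, in leukocytes and in the osteoblasts, chondrocytes and osteoclasts that remodel bone and cartilage.

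Each sarcoma gave 1 library, with total counts of 18134000 in ATO 1, 15259695 in ATO 2, 17465090 in Ctl 1 and 17971675 in Ctl 2. A limit of 3 counts corresponded to 0.165, 0.197, 0.172 and 0.167 CPM (counts scaled to the library total), respectively, for counting error only. Levels are given as FPKM, the count scaled to exon length and to the total count of the library, which can be compared between genes. FPKM are lowered throughout where a small set of genes is very abundant, and in ATO 2 the mitochondrial share of counts was 14.7%, against 1.98% to 2.59% in the other sarcomas. Directions were therefore also read on CPM scaled by the trimmed mean of M values (TMM).

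The libraries differed in their cell type markers. Osteoblast markers were high in ATO 1, with a summed FPKM of 534 over 6 genes against 4.97 in ATO 2, 12.7 in Ctl 1 and 5.13 in Ctl 2. Ibsp, which encodes bone sialoprotein, led this list in ATO 1. Skeletal muscle markers summed over 5 genes to 12442 FPKM in ATO 1, 890 in ATO 2, 6.10 in Ctl 1 and 105 in Ctl 2. Adipocyte markers summed over 5 genes to 229 in ATO 1, 1369 in ATO 2, 12.7 in Ctl 1 and 66.2 in Ctl 2, with Fabp4 as the most abundant gene in each sarcoma. Fabp4 made up nearly all of the sum in Ctl, with 12.6 in Ctl 1 and 66.1 in Ctl 2. Adipoq had 38.9 in ATO 1 and 191 in ATO 2 but 0.08 in each Ctl sarcoma. Endothelial markers were highest in Ctl 2, with a sum over 4 genes of 893 FPKM against 68.7, 138 and 94.3 in ATO 1, ATO 2 and Ctl 1. The mesenchymal genes of a sarcoma were present in every sarcoma, with sums over 6 genes of 3932 FPKM in ATO 1, 835 in ATO 2, 3898 in Ctl 1 and 1384 in Ctl 2. Col1a1 led this list except in Ctl 2, where Vim led. Vim, Pdgfrb and Thy1, 3 of the 6, were lower in ATO 1 and ATO 2 than in either control, against 20.2% of all genes tested. Thy1, a surface protein of fibroblasts, had an FPKM of 3.66 in ATO 1, 34.5 in ATO 2, 114 in Ctl 1 and 101 in Ctl 2. The median log2 fold change was -1.23 over the mesenchymal list and -1.86 over the endothelial list, against -0.016 over all genes. Of the mesenchymal genes 4 were fitted lower in ATO, while Col1a1 (0.25) and Col1a2 (0.97) were fitted higher. In the endothelial list the groups overlapped in every gene, and the sum in Ctl 1 was below that in ATO 2. Epithelial markers were low, with sums over 5 genes of 5.41, 18.8, 1.05 and 7.74 FPKM in the same order. The plot of marker sums shows that no list had the same level in all sarcomas. In such bulk samples, fewer cells of a type and less RNA per cell cannot be told apart.

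**Figure D1:**
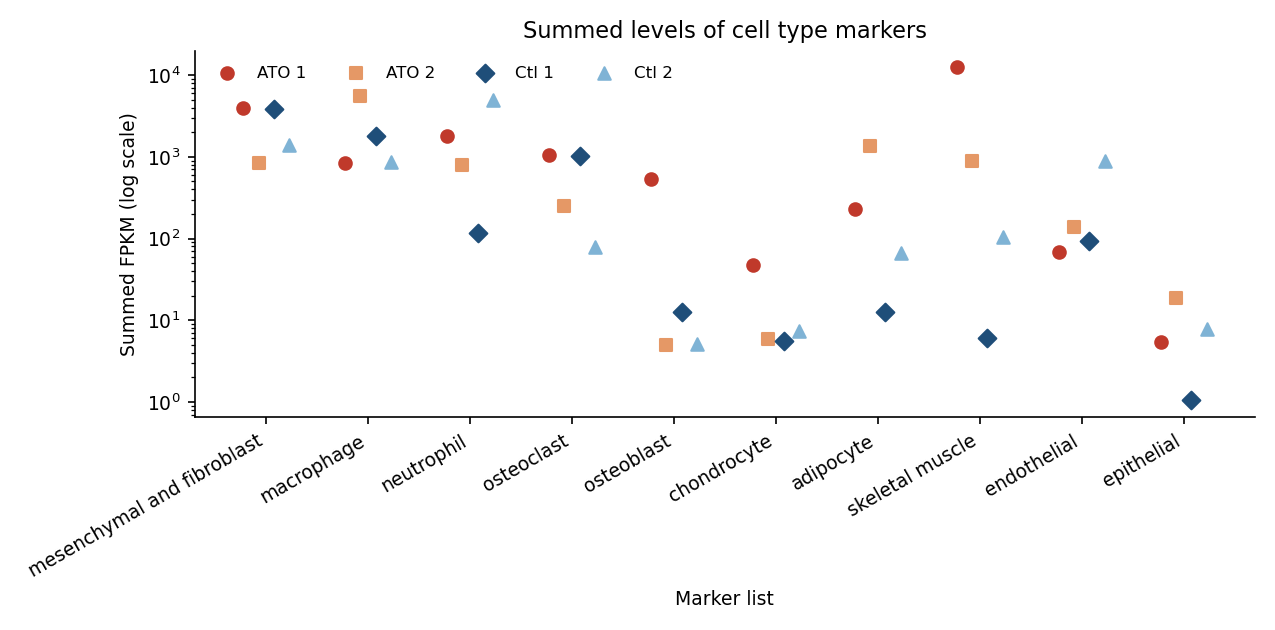
Summed FPKM (log scale) of the markers of each cell type in ATO 1, ATO 2, Ctl 1 and Ctl 2, 1 point per sarcoma. The sums of osteoblast and skeletal muscle markers were highest in ATO 1, those of adipocyte and macrophage markers in ATO 2, and those of neutrophil and endothelial markers in Ctl 2. Singly, the neutrophil markers Mpo, Elane and Camp were highest in ATO 1, and the macrophage markers Ptprc and Csf1r were not highest in ATO 2.

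Promoters of Mmp13, Mmp3, Mmp10 and Mmp1a are shown because these genes lie in 1 cluster on chromosome 9 and share motifs, yet were not all highest in the same sarcoma, and those of Timp1 and Timp4 are shown for contrast. The sequences are from RefSeq (GRCm38.p6) and run 5′ to 3′ from 130 bases before the annotated start to 10 bases after it. They lie at chr9:7272384-7272523 (plus strand) for Mmp13, chr9:7445692-7445831 (plus strand) for Mmp3, chr9:7502212-7502351 (plus strand) for Mmp10, chr9:7464011-7464150 (plus strand) for Mmp1a, chrX:20870036-20870175 (plus strand) for Timp1 and chr6:115252196-115252335 (minus strand) for Timp4. Capitals mark TGAGTCA or TGACTCA (letters bound by AP-1, the Fos and Jun dimers), TATAAA and, in Mmp13, ACCACA, the reverse complement of TGTGGT (letters bound by Runx factors), and the Timp1 and Timp4 sequences hold none of them.
Mmp13: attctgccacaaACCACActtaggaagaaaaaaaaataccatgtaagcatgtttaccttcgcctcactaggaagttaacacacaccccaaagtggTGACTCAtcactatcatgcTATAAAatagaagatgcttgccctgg
Mmp3: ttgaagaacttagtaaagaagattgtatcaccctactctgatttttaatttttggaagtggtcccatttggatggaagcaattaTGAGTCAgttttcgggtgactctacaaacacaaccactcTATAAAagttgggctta
Mmp10: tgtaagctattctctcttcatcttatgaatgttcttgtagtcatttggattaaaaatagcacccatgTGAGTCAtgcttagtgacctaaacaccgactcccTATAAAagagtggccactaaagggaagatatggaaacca
Mmp1a: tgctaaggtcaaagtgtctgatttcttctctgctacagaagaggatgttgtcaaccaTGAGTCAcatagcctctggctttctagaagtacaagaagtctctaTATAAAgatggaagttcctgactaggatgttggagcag
Timp1: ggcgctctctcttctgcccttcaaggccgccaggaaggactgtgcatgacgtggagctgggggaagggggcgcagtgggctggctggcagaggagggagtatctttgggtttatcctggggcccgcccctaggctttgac
Timp4: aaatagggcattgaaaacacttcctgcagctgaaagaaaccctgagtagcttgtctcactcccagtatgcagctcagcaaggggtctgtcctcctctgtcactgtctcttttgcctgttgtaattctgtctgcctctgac
The AP-1 letters were found on either strand in 7 of the 10 Mmp genes of this cluster, in 0 of 8 other Mmp genes and in 0 of 4 Timp genes, against 5.20% of 32851 promoters of 300 bases (250 before to 50 after the start). TATAAA was found in 9 of the 10 cluster genes, 1 of the 8 other Mmp genes and 0 of the 4 Timp genes, against 13.6% of all promoters. TGTGGT was found in 4, 2 and 0 of these genes, against 16.8%. A match describes letters and is not a binding site, and these motifs do not overlap each other in the sequences shown. Promoters were found for 8 of the 10 members, and Mmp2 and Mmp9 had no entry in the promoter set used here.

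Of the inhibitors, Timp2 was the most abundant in every sarcoma. Timp2 (ENSMUSG00000017466, chromosome 11 of GRCm38, 118301069 to 118355740, minus strand), which inhibits many metalloproteinases and takes part in the activation of Mmp2, had an FPKM of 131 in ATO 1, 156 in ATO 2, 388 in Ctl 1 and 120 in Ctl 2. Ctl 1 stood above the other sarcomas, and the groups overlapped because Ctl 2 was the lowest. Timp2 held 76.4%, 75.7%, 83.7% and 55.0% of the summed FPKM of the 4 Timp genes in ATO 1, ATO 2, Ctl 1 and Ctl 2. Its fitted log2 fold change of ATO over Ctl was -0.54 (SE 0.78).

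Timp1 (ENSMUSG00000001131, chromosome X, 20870166 to 20874735, plus strand), an inhibitor that is induced by many cytokines, had an FPKM of 15.2 in ATO 1, 31.6 in ATO 2, 72.3 in Ctl 1 and 59.9 in Ctl 2. The ATO sarcomas were both lower than either Ctl sarcoma, on FPKM and on CPM. The mean was 23.8 ± 14.8 CPM (SD, n = 2) in ATO and 53.6 ± 7.63 CPM (SD, n = 2) in Ctl, with a fitted log2 fold change of -1.17 (SE 0.58). On log2 CPM the gap between ATO 1 and ATO 2 was 1.35, larger than that fitted difference between the groups. Timp1 lies within Syn1, which is on the opposite strand, but shares 0 exonic bases with it.

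Timp3 (ENSMUSG00000020044, chromosome 10, 86300372 to 86349506, plus strand), which stays bound to the matrix, had an FPKM of 18.7 in ATO 1, 12.8 in ATO 2, 3.49 in Ctl 1 and 38.3 in Ctl 2. The Ctl sarcomas were the lowest and the highest, 3.43 apart on log2 CPM, and both ATO sarcomas lay between them. Ctl 2 was also the sarcoma with the highest endothelial markers, with a sum of 893 FPKM. The other sarcomas did not take the order of Timp3, with endothelial sums of 68.7 in ATO 1, 138 in ATO 2 and 94.3 in Ctl 1. The part of endothelial cells in the level of Timp3 was not tested. Timp3 lies within Syn3 on the opposite strand, and 1733 of its 8144 exonic bases (21.3%) are exonic there too. Syn3 itself had 14 and 15 counts in ATO and 4 and 18 in Ctl.

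Timp4 (ENSMUSG00000030317, chromosome 6, 115241892 to 115252205, minus strand), the inhibitor known from heart, muscle and adipose tissue, had at most 3 counts in a Ctl sarcoma. It had 716 counts in ATO 1 and 493 in ATO 2, against 3 in Ctl 1 and 2 in Ctl 2. This corresponded to an FPKM of 6.70, 5.48, 0.03 and 0.02. The Ctl counts were at or under the limit of 3 counts per library, while the ATO sarcomas were within 0.01 of each other on log2 CPM. The ratio of the rates, over 1209 counts in ATO and 5 in Ctl, was 306 (exact 95% interval 131 to 945, counting error only). The fitted log2 fold change of 8.18 (SE 0.61) depends on the prior count in view of the low Ctl counts, and limma on log2(FPKM + 1) gave 2.78. Of the members Timp4 had the largest log2 fold change in edgeR, whereas limma gave a larger one for Mmp13 (3.73). Timp4 made up only a small part of the Timp sum, with ranks of 6814 and 6774 by FPKM among 17188 genes in the ATO sarcomas. Timp4 lies within Syn2 on the opposite strand and shares 90 exonic bases (1.53%) with it. Syn2 had 202 and 123 counts in ATO and 29 and 223 in Ctl, and its 223 counts in Ctl 2 stood beside 2 counts of Timp4.

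The 3 genes whose log2 CPM over the 4 sarcomas, centred on their mean, came closest to Timp4 among the 17187 other genes tested were Plin4, Cyp2e1 and Lep, with root mean square differences of 0.63, 0.66 and 0.67. Plin4, a perilipin of lipid droplets, had an FPKM of 100.04 in ATO 1, 28.2 in ATO 2, 0.40 in Ctl 1 and 0.56 in Ctl 2. Lep, which encodes the adipocyte hormone leptin, had 6.20 and 13.6 in ATO and was listed at 0 in both Ctl sarcomas. In the adipocyte and in the skeletal muscle list 5 of 5 genes were, like Timp4, higher in both ATO sarcomas than in either control. Of all genes tested, 19.7% were higher in this way. Between ATO 1 and ATO 2, where Timp4 was level, neither list followed it. The adipocyte sum was 229 FPKM in ATO 1 and 1369 in ATO 2, and the skeletal muscle sum 12442 and 890. In the adipocyte list Lep was at 0 in both Ctl sarcomas and Plin1 in Ctl 1, and in the skeletal muscle list, led by Acta1 in ATO 1, ATO 2 and Ctl 2 and by Tnnt3 in Ctl 1, no gene was at 0. The part of fat and muscle tissue in the level of Timp4 was not tested.

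**Figure D2:**
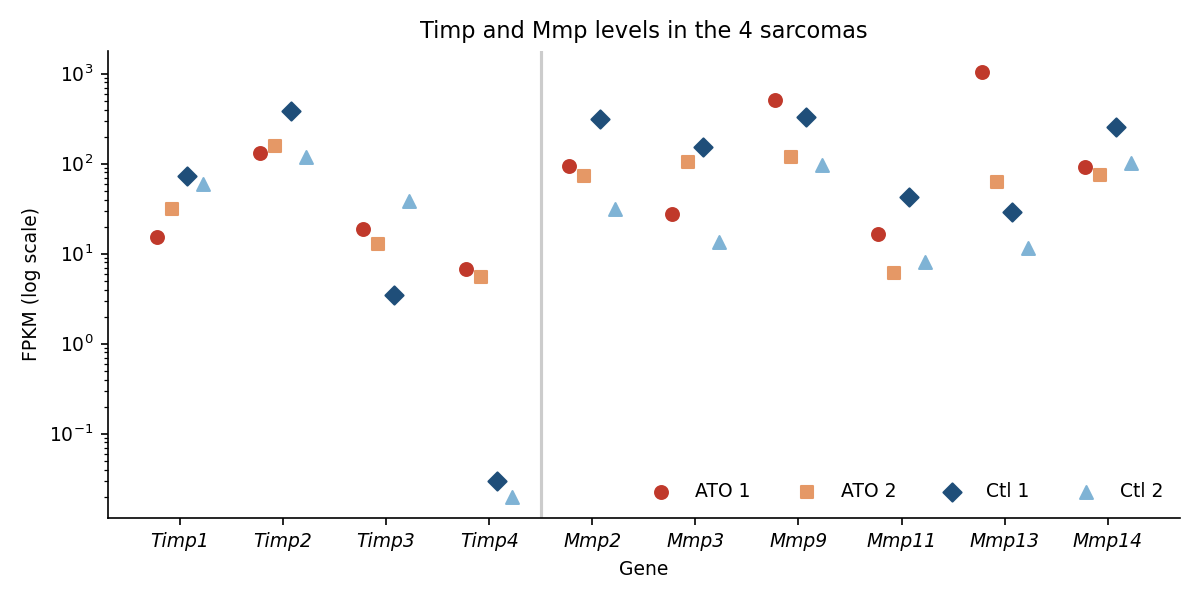
FPKM (log scale) of the 4 Timp and 6 Mmp genes in each sarcoma, 1 point per sarcoma. Timp4 lay at 6.70 and 5.48 in ATO and at 0.03 and 0.02 in Ctl, and Mmp13 reached 1046 in ATO 1.

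Among the 6 Mmp members, the collagenase Mmp13 had the widest range. Mmp13 (ENSMUSG00000050578, chromosome 9, 7272514 to 7283331, plus strand), which cleaves fibrillar collagen and is made by osteoblasts and by hypertrophic chondrocytes, had an FPKM of 1046 in ATO 1, 63.3 in ATO 2, 29.1 in Ctl 1 and 11.7 in Ctl 2. The ATO sarcomas were both higher than either Ctl sarcoma, but ATO 1 was 3.75 above ATO 2 on log2 CPM. In ATO 1 it ranked 23 by FPKM among 17188 genes and took 0.279% of all counts, and in ATO 2 it ranked 669. The mean was 1495 ± 1823 CPM (SD, n = 2) in ATO and 49.9 ± 30.6 CPM (SD, n = 2) in Ctl, with a fitted log2 fold change of 4.91 (SE 1.52). Without ATO 1 this value was 2.03.

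The genes nearest to Mmp13 by the same measure were Bmp3, Asb5 and Klhl30, with differences of 0.14, 0.19 and 0.37. Bmp3, a bone morphogenetic protein, had an FPKM of 10.5 in ATO 1, 0.63 in ATO 2, 0.22 in Ctl 1 and 0.09 in Ctl 2. Asb5, a gene of skeletal muscle, had 36.2, 2.17, 0.71 and 0.37 in the same order. The osteoblast markers were high in ATO 1 as well, where Ibsp had an FPKM of 291 against 0.29, 0.30 and 0.35 in ATO 2, Ctl 1 and Ctl 2. Sp7, an osteoblast transcription factor, had 40.5 in ATO 1, was listed at 0 in ATO 2 and Ctl 1 and had 0.39 in Ctl 2, while Bglap2 was at 0 in both Ctl sarcomas. Of the osteoblast list 5 of 6 genes could be tested, and Bglap2 did not pass the filter. The chondrocyte list, summed over 6 genes, was also highest in ATO 1, with 46.8 FPKM against 5.93, 5.58 and 7.32. Comp (22.2) and Col2a1 (21.3) made up most of this sum, and 4 of the 6 genes were highest in ATO 1. Sox9 went the other way, with an FPKM of 1.84 and 0.97 in ATO and 5.25 and 4.43 in Ctl. Comp led the list in both ATO sarcomas and Sox9 in both Ctl sarcomas, with Matn1 at 0 in ATO 2 and Ctl 1 and Col9a1 at 0 in ATO 2 and Ctl 2. Beyond ATO 1 the lists followed Mmp13 only in part. Alpl had 61.9 and 3.28 FPKM in ATO against 1.28 and 1.38 in Ctl, and Comp 22.2 and 4.88 against 0.17 and 2.49. Like Mmp13, these genes had every ATO value higher than every Ctl value. Among tested osteoblast genes 1 of 5 did so on FPKM and 2 on TMM-normalized CPM. Among tested chondrocyte genes 1 of 4 did so, and 1 (Sox9) showed the reverse. Of all genes tested, 19.7% were above and 20.2% below in this way on TMM-normalized CPM, and the shares on FPKM are not given here. All 6 osteoblast markers were highest in ATO 1, but 1 of the 6 (Bglap2, at 0 in both Ctl sarcomas) and 0 of the 6 chondrocyte markers took the order of Mmp13, and the osteoblast sum was lower in ATO 2 than in Ctl 1. Runx2, a Runx factor of osteoblasts, had an FPKM of 13.1 in ATO 1, 1.01 in ATO 2, 10.2 in Ctl 1 and 2.92 in Ctl 2. In the skeletal muscle list 5 of 5 genes had both ATO sarcomas above both Ctl sarcomas, against 19.7% of all genes tested. Its sum was 12442 FPKM in ATO 1, 890 in ATO 2, 6.10 in Ctl 1 and 105 in Ctl 2. The part of bone, cartilage and muscle cells in the level of Mmp13 was not tested.

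Mmp9 (ENSMUSG00000017737, chromosome 2, 164940780 to 164955850, plus strand), a gelatinase of neutrophils, macrophages and osteoclasts, had an FPKM of 512 in ATO 1, 118 in ATO 2, 332 in Ctl 1 and 96.4 in Ctl 2. Each group held a high and a low sarcoma, 1.82 apart in ATO and 1.81 in Ctl on log2 CPM, so that the groups overlapped. It made up 26.8% to 36.5% of the summed FPKM of the 6 Mmp members in all 4 sarcomas. The sum of the osteoclast markers took the same order, with values over 6 genes of 1065 FPKM in ATO 1, 1030.5 in Ctl 1, 252 in ATO 2 and 78.1 in Ctl 2. Singly, 2 of the 6 (Acp5 and Dcstamp) took it, whereas Ctsk, Ocstamp and Atp6v0d2 were highest in Ctl 1, and Calcr, highest in ATO 1, was second in Ctl 2. Ctsk, the collagen-degrading protease of osteoclasts, led this list except in ATO 2, where Acp5 led and Calcr was at 0. The neutrophil markers summed to 4956 FPKM in Ctl 2, 1783 in ATO 1, 789 in ATO 2 and 118 in Ctl 1, with S100a9 as the leading gene throughout. None of the 6 took the order of Mmp9, but Mpo, Elane and Camp, which mark granulocyte precursors, were highest in ATO 1, as Mmp9 was, with an FPKM of 48.8, 68.2 and 201. The part of these cells in the level of Mmp9 was not tested.

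Mmp2 (ENSMUSG00000031740, chromosome 8, 92827291 to 92853420, plus strand), the gelatinase of fibroblasts, had an FPKM of 93.3 in ATO 1, 72.3 in ATO 2, 312 in Ctl 1 and 31.1 in Ctl 2. The Ctl sarcomas were 3.34 apart on log2 CPM and enclosed both ATO sarcomas, which were 0.07 apart. Of the 6 mesenchymal and fibroblast markers, 1 took the same order, Pdgfra, a growth factor receptor of fibroblasts, with 26.5, 11.7, 96.2 and 5.84 FPKM. Of the 6 markers 3 (Pdgfra, Pdgfrb and Thy1) were highest in Ctl 1, as Mmp2 was. Col1a1 (273) and Col1a2 (122) were lowest in Ctl 2, as Mmp2 was, but highest in ATO 1. Vim was highest in Ctl 2 with 812, and Pdgfrb (70.8) and Thy1 (101) were second highest there, where Mmp2 was lowest. The part of these cells in the level of Mmp2 was not tested. Mmp14 (ENSMUSG00000000957, chromosome 14, 54431612 to 54445364, plus strand), the membrane-bound activator of Mmp2, had 91.8 in ATO 1, 74.3 in ATO 2, 258 in Ctl 1 and 103 in Ctl 2. Both ATO sarcomas lay below both Ctl sarcomas, although on TMM-normalized CPM the values of 545 and 541 in ATO were next to 557 in Ctl 2, with 1413 in Ctl 1. With DESeq2's size factors in place of TMM the groups overlapped. Its fitted log2 fold change was -0.86 (SE 0.69), and -0.04 without Ctl 1.

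Mmp11 (ENSMUSG00000000901, chromosome 10, 75923222 to 75936496, minus strand), also called stromelysin 3, which is activated by furin inside the cell, had an FPKM of 16.6 in ATO 1, 6.16 in ATO 2, 42.2 in Ctl 1 and 8.13 in Ctl 2. The groups overlapped, with Ctl 1 the highest. It shares 155 exonic bases (5.58%) with Chchd10 on the opposite strand, which had 1278 and 4672 counts in ATO and 97 and 58 in Ctl. Whether reads were counted by strand is not given in the sources used here. Mmp3 (ENSMUSG00000043613, chromosome 9, 7445822 to 7455975, plus strand), stromelysin 1, which cuts proteoglycans and activates other Mmp precursors, had 27.6 in ATO 1, 106 in ATO 2, 155 in Ctl 1 and 13.4 in Ctl 2. Each group again held a high and a low sarcoma, and the fitted log2 fold change was 0.02 (SE 1.31).

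All 10 members passed the filter on low counts. In 2 of them (Timp4 and Mmp13) both ATO sarcomas were above both Ctl sarcomas, and in 2 (Timp1 and Mmp14) both were below, on TMM-normalized CPM and on FPKM. Of the 17188 genes tested, 19.7% were above and 20.2% below in this way. The other 6 overlapped. Ctl 1 had the highest level of 6 members (Timp1, Timp2, Mmp2, Mmp3, Mmp11 and Mmp14) on both scales. Without Ctl 1 the count of members above rose to 7, but the share of all genes for that comparison is not given here. In 8 of the 10 members the gap between sarcomas of 1 group was larger than the fitted difference between the groups, the exceptions being Timp4 and Mmp13. The same held for 71.6% of all genes tested.

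**Figure D3:**
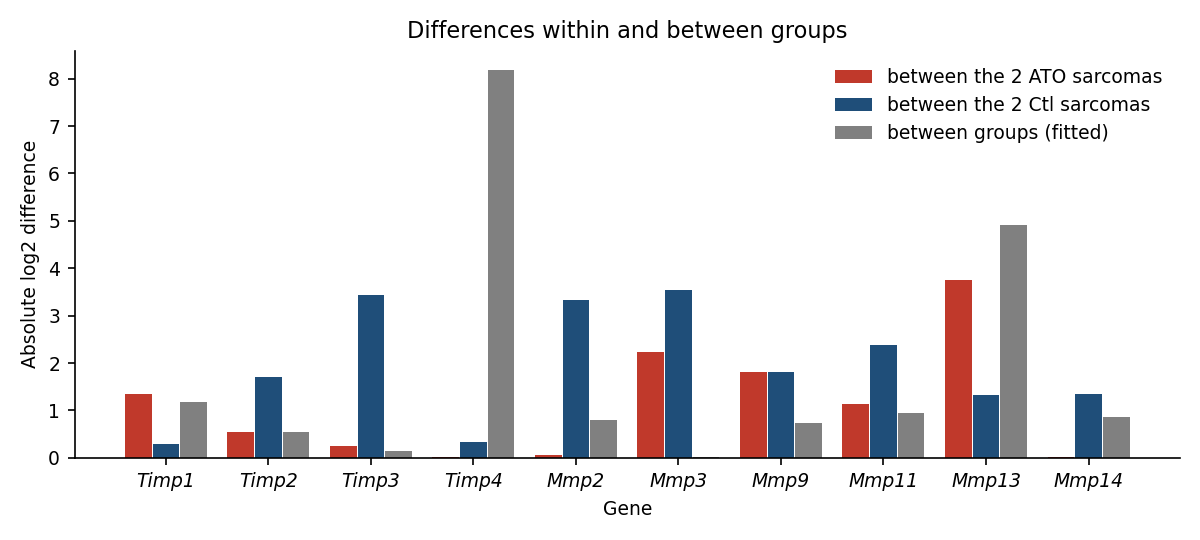
Absolute log2 differences for each member between the 2 ATO sarcomas, between the 2 Ctl sarcomas (both from log2 CPM) and between the groups (fitted by edgeR). The difference between groups exceeded both differences within groups in Timp4 and Mmp13.

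Summed over the 4 genes, the Timp level was 171 FPKM in ATO 1, 206 in ATO 2, 464 in Ctl 1 and 218 in Ctl 2. Both ATO sums were below both Ctl sums on this scale, but after division by the TMM factors they were 170 in ATO 1, 250 in ATO 2, 425 in Ctl 1 and 197 in Ctl 2, and the groups overlapped. The means of the unscaled sums were 188 ± 24.1 FPKM (SD, n = 2) in ATO and 341 ± 173 FPKM (SD, n = 2) in Ctl. The 6 Mmp members summed to 1786 FPKM in ATO 1, 440 in ATO 2, 1129 in Ctl 1 and 264 in Ctl 2, with means of 1113 ± 952 FPKM (SD, n = 2) in ATO and 696 ± 612 FPKM (SD, n = 2) in Ctl. The sums of the groups overlapped, and a different gene led in some of the sarcomas. Mmp13 led in ATO 1 with 58.5% of the sum, Mmp9 in ATO 2 with 26.8% and in Ctl 1 with 29.4%, and Mmp14 in Ctl 2 with 39.1%. The ratio of the Mmp to the Timp sum was 10.4 in ATO 1, 2.14 in ATO 2, 2.43 in Ctl 1 and 1.21 in Ctl 2. Without Mmp13 it was 4.32, 1.83, 2.37 and 1.15. ATO 1 was the highest either way, and the other ATO sarcoma lay between the Ctl sarcomas. These are ratios of RNA levels and do not measure enzyme activity.

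**Figure D4:**
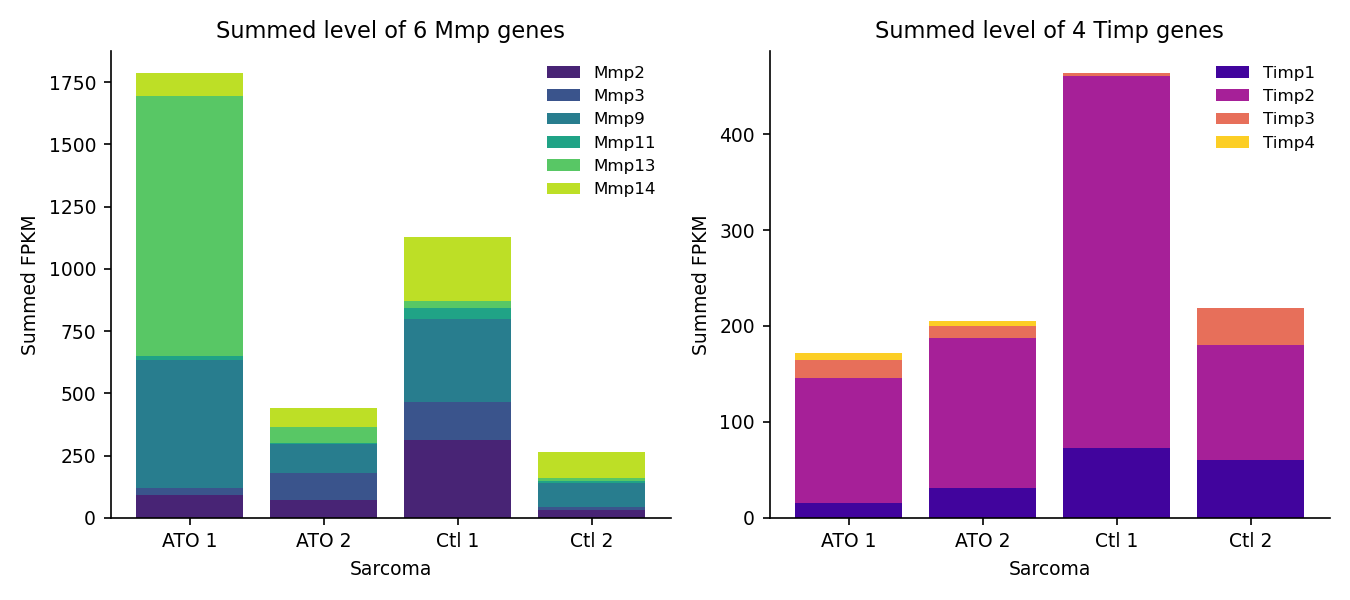
Summed FPKM of the 6 Mmp members (left) and the 4 Timp genes (right) in each sarcoma, with each gene as a segment of the bar. Mmp13 made up 58.5% of the Mmp sum in ATO 1, and Timp2 was the largest segment of each Timp bar.

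The other 17 Mmp genes were compared to ask whether further enzymes of the family differed between the groups. By edgeR's quasi-likelihood test with Benjamini-Hochberg adjustment, 0 of the 11 that passed the filter had an adjusted p under 0.05 (smallest adjusted p 0.710), 0 had an unadjusted p under 0.05, and DESeq2 also called 0. Over all genes the shares were 0% by edgeR, 8.51% at an unadjusted p under 0.05 and 4.15% by DESeq2. Of the 11 genes 6 were fitted higher and 5 lower in ATO, with a median log2 fold change of 0.14 against -0.016 for all genes. The 6 members held 95.8% of the summed FPKM of all 23 Mmp genes in ATO 1, 74.9% in ATO 2, 79.6% in Ctl 1 and 57.5% in Ctl 2. Of the other Mmp genes, Mmp8 was the most abundant in ATO 1 and Ctl 2, Mmp12 in ATO 2 and Mmp10 in Ctl 1. In ATO 1 Mmp8 was followed by Mmp23 with an FPKM of 21.7 and Mmp1a with 16.3. Mmp8, the neutrophil collagenase, had an FPKM of 23.5 in ATO 1, 18.4 in ATO 2, 8.59 in Ctl 1 and 138 in Ctl 2 (log2 fold change -1.54, SE 1.23, edgeR adjusted p 0.756). Of the 6 neutrophil markers 3 (S100a8, S100a9 and Ly6g) took this order of the sarcomas, while Mpo, Elane and Camp were highest in ATO 1. Mmp12, the elastase of macrophages, had 0.24 in ATO 1, 51.3 in ATO 2, 4.70 in Ctl 1 and 3.01 in Ctl 2 (log2 fold change 3.16, SE 2.13, edgeR adjusted p 0.710). The macrophage markers, led by Lyz2 in each sarcoma, summed over 6 genes to 830, 5502, 1788 and 873 FPKM. Lyz2 alone took the order of Mmp12, and 4 of the 6 (Lyz2, Cd68, Adgre1 and Itgam) were highest in ATO 2, while Ptprc was highest in Ctl 2 and Csf1r had 76.1 in ATO 1 and 76.2 in Ctl 1 against 61.7 in ATO 2. The part of leukocytes in the levels of Mmp8 and Mmp12 was not tested.

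The chromosome 9 cluster spans 7272514 to 7699585 of GRCm38 and holds 10 Mmp genes, of which Mmp3 and Mmp13 are members. Its summed FPKM was 1117 in ATO 1, 273 in ATO 2, 426 in Ctl 1 and 177 in Ctl 2. Mmp3 and Mmp13, the members in it, differed in pattern. Mmp12, the gene next to Mmp13, was highest in ATO 2, and Mmp1a, which lies between Mmp3 and Mmp10, was highest in ATO 1. Mmp10, stromelysin 2, had 2.88 in ATO 1, 31.9 in ATO 2, 226 in Ctl 1 and 6.30 in Ctl 2 (log2 fold change -2.35, SE 1.92, edgeR adjusted p 0.761). Like Mmp3 it was highest in Ctl 1 and second in ATO 2. Mmp1a, an interstitial collagenase, had 596 counts in ATO 1 against 2 in ATO 2, 3 in Ctl 1 and 1 in Ctl 2, and did not pass the filter. Mmp20 had at most 3 counts in a sarcoma, and Mmp7 was at 0 in both ATO sarcomas with 5 and 57 counts in Ctl 1 and Ctl 2. The AP-1 letters shown above were present in the promoters of Mmp13, Mmp3, Mmp10 and Mmp1a alike.

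**Figure D5:**
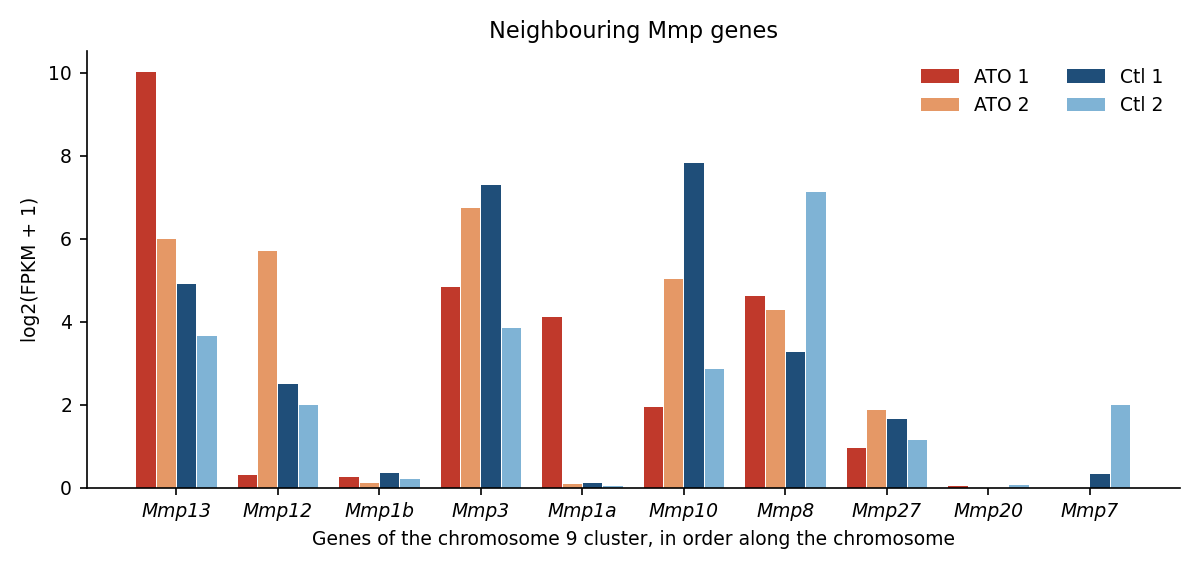
Levels of the 10 Mmp genes of the chromosome 9 cluster as log2(FPKM + 1), in chromosomal order, 1 bar per sarcoma. Mmp13 and Mmp1a were highest in ATO 1, Mmp12 in ATO 2, Mmp3 and Mmp10 in Ctl 1, and Mmp8 and Mmp7 in Ctl 2.

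Genes that activate or restrain the enzymes were mostly fitted lower in ATO. Of 14 such genes 13 were tested, with 3 fitted higher, 10 lower and a median log2 fold change of -0.99 (all genes -0.016). The mesenchymal (-1.23) and endothelial (-1.86) markers had negative medians as well, although the groups overlapped in every endothelial gene. The medians of the adipocyte (12.33) and skeletal muscle (7.11) markers were positive. The part of these cell types in the levels of the 13 genes was not tested. None passed edgeR's adjusted threshold (0 of 13, smallest adjusted p 0.570), and 4 had an unadjusted p under 0.05, namely Plau, Plat, Tfpi2 and A2m. DESeq2 called Plau, Plat and Tfpi2, all lower in ATO. Over all genes the shares were 8.51% at an unadjusted edgeR p under 0.05 and 4.15% by DESeq2. Plau, the urokinase that makes plasmin, an activator of Mmp precursors, had an FPKM of 13.2 in ATO 1, 21.7 in ATO 2, 87.8 in Ctl 1 and 220 in Ctl 2 (log2 fold change -2.82, SE 0.71, edgeR adjusted p 0.570, DESeq2 adjusted p 0.00961). Plat, the tissue plasminogen activator, had 1.46 and 5.43 in ATO and 45.7 and 58.9 in Ctl (log2 fold change -3.56, SE 0.88, edgeR adjusted p 0.570, DESeq2 adjusted p 0.00268). In both genes the ATO sarcomas lay below the Ctl sarcomas. On TMM-normalized CPM 4 of the 13 tested genes did so, against 20.2% of all genes tested. In 2 of the 13 the ATO sarcomas lay above, against 19.7%. With 1 sarcoma left out the log2 fold change ranged from -3.40 (without ATO 2) to -2.03 (without Ctl 2) for Plau and from -5.03 (without ATO 2) to -2.86 (without ATO 1) for Plat. Plg, the plasminogen they act on, was at 0 in 3 of the sarcomas and at 0.01 FPKM in ATO 1. Reck, a membrane-anchored inhibitor of Mmp enzymes, was fitted 0.62 higher in ATO on the log2 scale (SE 0.51, edgeR adjusted p 0.762). Bsg, known as an inducer of Mmp genes, was the most abundant gene of the list by mean FPKM, although Plau led in Ctl 2. Bsg had 218 and 260 in ATO and 185 and 198 in Ctl (edgeR adjusted p 0.755).

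The related proteases of the ADAM and ADAMTS families showed 0 of 14 genes past edgeR's adjusted threshold (smallest adjusted p 0.570). An unadjusted edgeR p under 0.05 was found for 3 (Adamts4, Adamts12 and Adam19), against 8.51% of all genes tested. Of the 14 genes 11 were fitted lower in ATO, with a median log2 fold change of -0.66 against -0.016 for all genes. The negative medians of the mesenchymal and endothelial markers stand beside this one too, and their part in it was not tested. Adam19 had an FPKM of 5.29 and 7.48 in ATO and 40.2 and 38.8 in Ctl (log2 fold change -2.32, SE 0.48, edgeR adjusted p 0.570). DESeq2 called Adam19 and Adamts12, against 4.15% of all genes tested. Adamts4, an aggrecanase that Timp3 inhibits, had 3.21 and 8.76 in ATO and 22.6 and 56.7 in Ctl (log2 fold change -2.38, SE 0.82, edgeR adjusted p 0.570).

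Among 13 substrates of the enzymes, 0 passed in edgeR (smallest adjusted p 0.597). An unadjusted edgeR p under 0.05 was found for 0 of them, against 8.51% of all genes tested. DESeq2 called Col2a1, against 4.15% of all genes tested. Of the 13 substrates 6 were fitted higher and 7 lower, with a median of -0.22. Col1a1, a chain of type I collagen, had an FPKM of 2413 in ATO 1, 315 in ATO 2, 2276 in Ctl 1 and 273 in Ctl 2 (edgeR adjusted p 0.975). Its high sarcomas were those of Mmp9. Col2a1, the collagen of cartilage, had 21.3 in ATO 1 against 0.05, 0.03 and 0.25 (log2 fold change 6.36, SE 2.72, edgeR adjusted p 0.597), and its log2 fold change was -1.09 without ATO 1.

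Of 13 genes for AP-1 subunits and for cytokines that induce Mmp and Timp genes, 0 passed in edgeR (smallest adjusted p 0.570), and Fosl1 and Il1a had an unadjusted p under 0.05. DESeq2 called the same pair, in opposite directions. Over all genes tested the shares were 8.51% at an unadjusted edgeR p under 0.05 and 4.15% by DESeq2. The median log2 fold change was -0.14, with 5 genes fitted higher and 8 lower. Fosl1, which encodes the AP-1 subunit Fra-1, had an FPKM of 0.19 and 0.23 in ATO and 7.77 and 4.11 in Ctl (log2 fold change -4.53, SE 0.79, edgeR adjusted p 0.570). Il1a, an interleukin 1 cytokine, was fitted higher in ATO, with 1.37 in ATO 1, 16.4 in ATO 2, 0.23 in Ctl 1 and 0.65 in Ctl 2 (log2 fold change 4.73, SE 1.53, edgeR adjusted p 0.570, DESeq2 adjusted p 0.00742). Without ATO 2 the log2 fold change of Il1a was 1.77. Il1b, a cytokine of activated macrophages and neutrophils, had 0.67 in ATO 1, 130 in ATO 2, 2.31 in Ctl 1 and 119 in Ctl 2 (edgeR adjusted p 0.967), and thus each group held a high and a low sarcoma.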

How the data were processed

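The authors processed the reads with FastQC 0.10.1, cutadapt 1.9.1 and HISAT2 2.0.1 against GRCm38 and counted them per gene with HTSeq, and deposited raw counts and FPKM of 56691 genes in 4 sarcomas. The deposited FPKM equalled counts divided by exonic size and total count within 0.005. Of 52073 genes shared with GENCODE M21 (GRCm38), 1472 had the same position in the table, so positions were taken from GENCODE by gene ID. The quasi-likelihood test of edgeR 4.0.16 (R 4.3.3) was run on the counts after filterByExpr, with TMM scaling (1.01 in ATO 1, 0.822 in ATO 2, 1.09 in Ctl 1, 1.11 in Ctl 2; Benjamini-Hochberg adjustment over 17188 genes, threshold 0.05). The biological coefficient of variation was 62.5%. Standard errors were derived from the F statistic. Log2 CPM used a prior count of 2. The results were recomputed with DESeq2 1.42.0, with edgeR scaled by DESeq2's size factors, unfiltered, with the replicate number as a block, by limma 3.58.1 on log2(FPKM + 1) for a mean FPKM of at least 1, on TPM for sums and overlaps, and with each sarcoma left out. The fits were also run on simulated data, and no result of those runs is used here. The members and the gene lists were chosen with earlier results of these data known. Named list genes were those with the highest mean FPKM or the largest fitted change, and others are named from the counts of calls. Orders of sarcomas shared with marker lists, the marker genes given singly, and the values of Reck, Plg, Mmp7, Mmp20 and Mmp1a were chosen after seeing the data. Figures were drawn in Python 3.11.15 with matplotlib 3.10.9.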

Additional observations from a re-analysis of the deposited data

How the results depend on the processing

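With 2 sarcomas a group, little can be said of stability, and where 1 sarcoma was left out its group held a lone sarcoma that was assumed to vary like the others. The number of genes past the adjusted threshold was 0 in edgeR and 0 with DESeq2's size factors, the replicate block, limma and each sarcoma left out, but 714 in DESeq2 and 541 without a filter. Among the other Mmp genes it was 0 except for 1 (Mmp1a) without a filter. Among the regulators it was 3 in DESeq2 and 2 without a filter, among ADAM and ADAMTS genes 2 in DESeq2, among substrates 1 (Col2a1) in both and among inducers 2 (Fosl1 and Il1a) in both. The cause was not tested. The number of members with both ATO sarcomas above was 2, and between 2 and 7 when 1 sarcoma was omitted, the 7 being without Ctl 1. The number below was 2, between 2 and 6 when 1 sarcoma was omitted, the 6 being without Ctl 2, and was 1 with DESeq2's size factors. For the omissions the shares of all genes are not given here, so these counts cannot be set against a background. Over 9 alternatives Timp1 (-1.99 to -0.66), Timp4 (2.78 to 8.51), Mmp13 (2.03 to 5.80) and Mmp14 (-1.39 to -0.04) kept the sign of their log2 fold change. The sign differed for Timp2 (-1.16 to 0.56), Timp3 (-1.02 to 2.41), Mmp2 (-1.67 to 1.68), Mmp3 (-1.49 to 2.69), Mmp9 (-0.46 to 1.9) and Mmp11 (-1.69 to 0.71) in 1 to 3 alternatives each. The log2 ratio of the Timp sums was -0.86 and stayed between -1.30 and -0.21, while that of the Mmp sums was 0.68 and ranged from -0.66 without ATO 1 to 2.08 without Ctl 1.

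Single genes, none called by edgeR, changed direction with 1 sarcoma left out. Their log2 fold changes then ranged from -5.21 to 1.87 (Mmp10, positive without Ctl 1), -2.45 to 1.53 (Mmp8, positive without Ctl 2), -3.85 to 4.14 (Mmp12, negative without ATO 2), -0.26 to 0.35 (Adam9, negative without ATO 2), -1.62 to 2.49 (Col1a1, negative without ATO 1 or, at -0.59, Ctl 2), -6.36 to 5.22 (Il1b, negative without ATO 2 or, at -0.44, Ctl 1) and -0.74 to 0.08 (Jund, positive without Ctl 2). Without ATO 1 they were negative for Col1a2 (-0.87 to 2.79), Col2a1 (-1.09 to 8.5) and Acan (-1.23 to 3.8). Limma gave -0.22 for Adam9 and -0.43 for Il1b, and the replicate block -0.51 for Il1b. The labels number the replicates alike in both groups but do not say that a number pairs sarcomas. Deviations from the group means correlated at -0.02 between sarcomas of 1 number. In the fit with the replicate block 0 genes were called, and 1165 genes were under an unadjusted p of 0.05, against 1463 in the fit without it.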
